A study of Homo sapiens with 6 samples.

Results

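The microRNA processing and Argonaute machinery was described from 10 genes of the deposited count table, of 63299 genes in all. They were taken by symbol from the chromosomes: DROSHA, DGCR8, XPO5, DICER1, AGO1, AGO2, AGO3, AGO4, TNRC6A and TNRC6B. Each symbol matched 1 gene, and all 10 passed the filter on low counts. RNA was sequenced from LNCaP cells, an androgen-responsive line of human prostate cancer. In 3 libraries, called knockdown here, the cells had received doxycycline (Dox+), which induces a short hairpin RNA against MEP50. In the other 3 libraries, called control, the cells were left without doxycycline (Dox-) and had no knockdown. MEP50, encoded by WDR77, is the partner protein of the arginine methyltransferase PRMT5. All libraries came from the same cell line, and the sources used here give neither the hairpin sequence, nor the time on doxycycline, nor whether the line is a single clone. No library had doxycycline without the hairpin against MEP50, so effects of the drug, of making a hairpin and of losing MEP50 cannot be told apart.

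As background, a primary microRNA transcript is cut in the nucleus by the Microprocessor, in which the nuclease DROSHA works with the RNA-binding protein DGCR8. The hairpin that is left is carried to the cytoplasm by exportin 5, the product of XPO5, and cut again by the nuclease DICER1. An Argonaute protein takes up a strand of the resulting duplex and recruits a TNRC6 protein, a scaffold that brings in the enzymes that shorten the poly(A) tail and remove the cap of the target mRNA. AGO2 is the human Argonaute best known for cutting a fully matched target. Short hairpin RNAs expressed from a vector enter the same pathway, at the export step or, when built into a microRNA backbone, at the Microprocessor.

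The libraries held 18568002 to 36234784 counts on genes. WDR77 was measured at 15.0, 14.0 and 12.7 CPM (counts scaled to library size and composition) in knockdown replicates 1 to 3 and at 49.3, 47.2 and 36.7 CPM in control replicates 1 to 3, a 3.18-fold fall (adjusted p 0.00131, edgeR). All 8 markers of LNCaP cells exceeded 100 CPM in every library. Their summed level was 3904 to 4536 CPM in knockdown and 6723 to 7689 CPM in control. Of 8 markers of leukocytes, fibroblasts, endothelium, basal epithelium and smooth muscle, 6 stayed under 0.1 CPM in every library, among them KRT5 at 0, and COL1A1 and ACTA2 were detected in all. The summed level of these 8 was 13.8 to 17.0 CPM in knockdown and 8.03 to 17.3 CPM in control, where COL1A1 made up most of the sum. ACTA2, a smooth muscle actin, was at 4.82, 4.35 and 4.26 CPM in knockdown and 2.60, 2.96 and 2.88 CPM in control, without overlap (adjusted p 0.075, and 0.0204 with the block, edgeR). The part of these markers in the results below was not tested. In such bulk RNA, fewer cells of a type and less RNA per cell cannot be told apart.

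Among the Argonaute transcripts AGO1 and AGO3 changed in opposite directions, while the processing members DROSHA, DGCR8, XPO5 and DICER1 were not called. AGO1 fell 1.44-fold and AGO3 rose 1.43-fold. AGO2 was 1.65-fold lower and AGO4 1.25-fold higher without passing the test. DROSHA, DGCR8, XPO5 and DICER1 had log2 fold changes between -0.13 and -0.02. A change was called at an adjusted p under 0.05 over all 21101 tested genes in edgeR's quasi-likelihood test. By that rule 1 of 10 members was higher and 1 lower, where 2.72% of all genes were higher and 4.88% lower. Libraries with the same replicate number deviated together, and with the number as a block in the fit 2 members were higher (AGO3 and TNRC6B) and 2 lower (AGO1 and AGO2), against 11.2% and 14.9% of all genes. The CPM ranges of the groups did not overlap for 3 members, AGO1, AGO2 and AGO3. That is close to the background, since 30.4% of all tested genes had ranges without overlap. The median log2 fold change of the 10 members was -0.08, and that of all tested genes was 0.002.

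**Figure D1:**
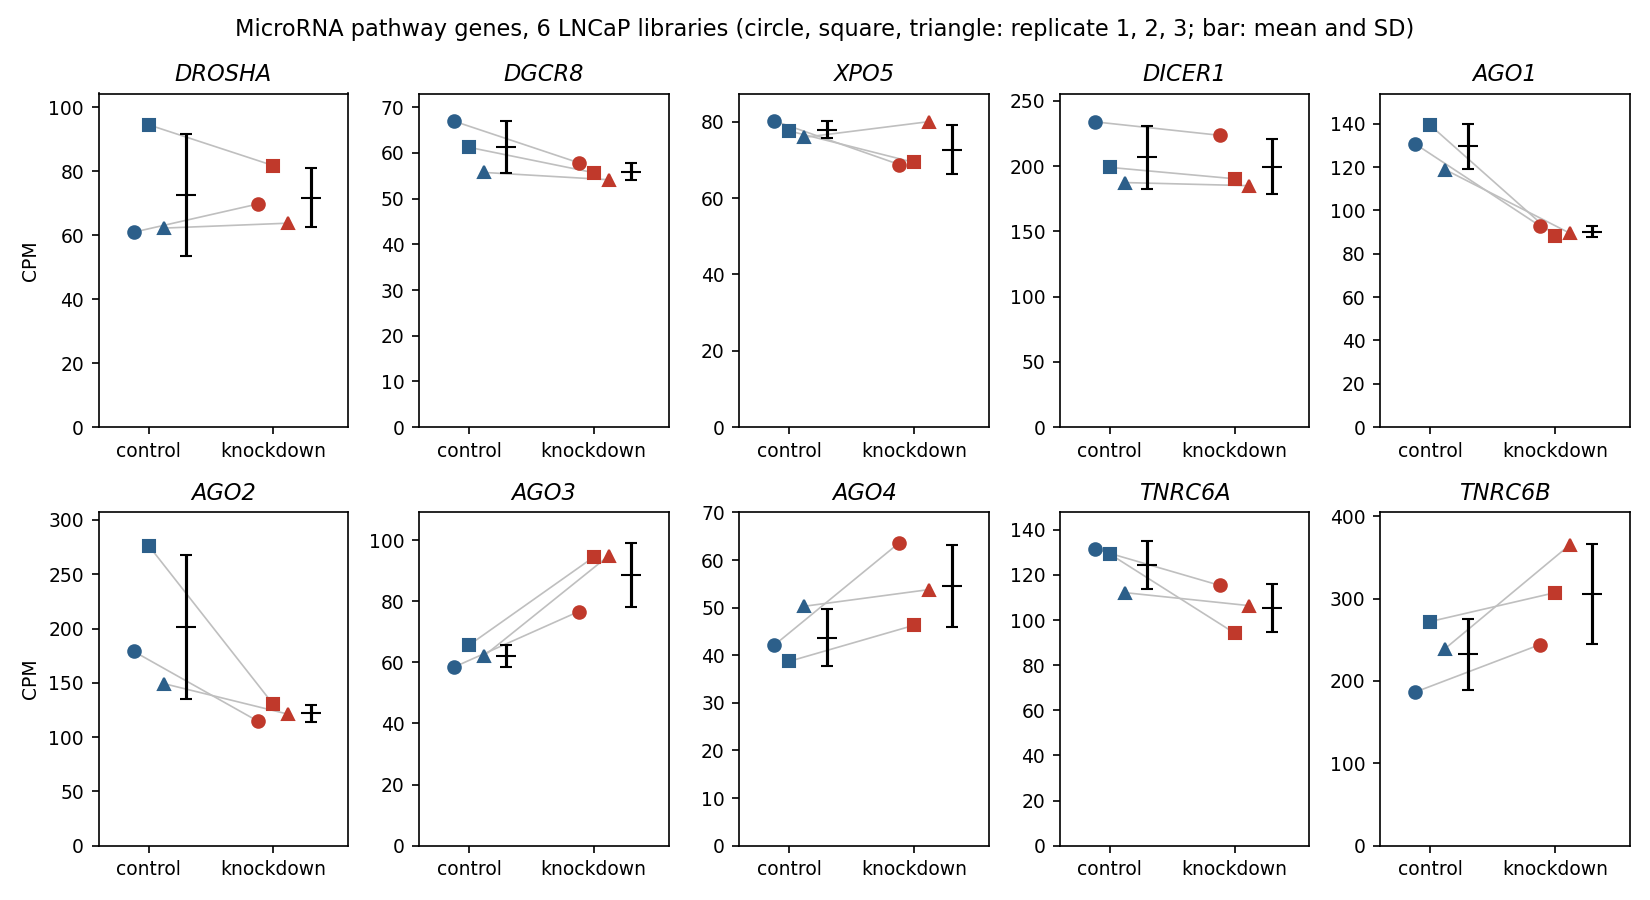
CPM of each member (vertical axis, from 0) in the 3 control (blue) and 3 knockdown (red) libraries, with mean and SD and with grey lines joining libraries of the same replicate number. AGO1 and AGO2 have all knockdown points below all control points, AGO3 has them all above, and the other 7 genes overlap.

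The Microprocessor transcripts showed no called difference. DROSHA was measured at 69.8, 81.7 and 63.7 CPM in knockdown replicates 1 to 3 and at 60.9, 94.5 and 62.2 CPM in control replicates 1 to 3. Replicate 2 was the highest library of both groups, and the groups overlapped fully. The log2 fold change of DROSHA (ENSG00000113360.16, chromosome 5, 31400497 to 31532196, hg38, minus strand) was -0.02, with a 95% interval from -0.44 to 0.41. DGCR8 had 57.8, 55.7 and 54.1 CPM in knockdown and 66.9, 61.2 and 55.7 CPM in control. It was lower in 3 of 3 replicate pairs, but the lowest control library lay inside the knockdown range. Its log2 fold change was -0.13 (95% interval -0.41 to 0.14, adjusted p 0.542, edgeR). DGCR8 (ENSG00000128191.14) lies on chromosome 22 at 20080232 to 20111877. The strand setting of the counting is not given in the sources used here, and 7.19% of DGCR8's exonic bases are shared with AC006547.8 on the other strand.

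Export and dicing transcripts were also close between the groups. XPO5 (ENSG00000124571.17, chromosome 6, 43522330 to 43576075) was measured at 68.8, 69.3 and 80.0 CPM in knockdown and 80.2, 77.6 and 75.9 CPM in control. Knockdown replicate 3 fell among the control libraries and the other 2 knockdown libraries below them. XPO5 thus had a log2 fold change of -0.10 (95% interval -0.37 to 0.17). DICER1 (ENSG00000100697.14, chromosome 14, 95086228 to 95158010) had 223.6, 190.3 and 185.0 CPM in knockdown and 233.9, 199.0 and 187.4 CPM in control. Within each pair the values were nearly the same, with log2 ratios of -0.07, -0.06 and -0.02, and replicate 1 was the highest library in both groups. The log2 fold change of DICER1 was -0.05, with a 95% interval from -0.36 to 0.26 and, with the block, from -0.26 to 0.16. For these 4 processing genes the intervals of the fit without the block together reached from -0.44 to 0.41 on the log2 scale, so changes of that size could have been missed.

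Of the Argonaute genes 3 stand side by side on chromosome 1 in the same direction, in the order AGO4, AGO1 and AGO3, and their fitted values differed in sign. AGO4 and AGO1 are 11917 bases apart in the deposited annotation, and 189 bases separate the end of AGO1 from the start of AGO3. AGO1 and AGO3, the closest pair, were the called members, with opposite signs. The 250 bases before the RefSeq start of each gene (GRCh38.p14, plus strand) are shown because these neighbours differed in direction. Capitals mark a CCAAT box (CCAAT or ATTGG) or a GC box (GGGCGG or CCGCCC), each searched on both strands. The windows lie at chr1:35807766-35808015 for AGO4, chr1:35882959-35883208 for AGO1 and chr1:35930855-35931104 for AGO3.
AGO4: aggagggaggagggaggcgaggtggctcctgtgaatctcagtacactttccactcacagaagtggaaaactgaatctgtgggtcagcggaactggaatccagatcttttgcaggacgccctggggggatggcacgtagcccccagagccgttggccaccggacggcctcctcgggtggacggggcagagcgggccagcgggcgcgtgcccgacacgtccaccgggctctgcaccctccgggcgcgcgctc
AGO1: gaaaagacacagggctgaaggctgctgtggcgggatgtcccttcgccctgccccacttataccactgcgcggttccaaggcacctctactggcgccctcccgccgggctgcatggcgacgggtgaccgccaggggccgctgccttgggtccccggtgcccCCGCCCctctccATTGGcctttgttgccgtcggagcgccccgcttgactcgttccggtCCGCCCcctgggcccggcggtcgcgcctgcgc
AGO3: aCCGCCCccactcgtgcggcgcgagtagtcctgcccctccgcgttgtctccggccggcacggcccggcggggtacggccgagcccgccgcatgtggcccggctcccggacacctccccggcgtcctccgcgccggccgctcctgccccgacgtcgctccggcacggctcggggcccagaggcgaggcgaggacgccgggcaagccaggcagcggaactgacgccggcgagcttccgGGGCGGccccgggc
The deposited annotation starts AGO1 and AGO3 further upstream, at 35869808 and 35930718, so both windows lie between the start and end of those genes there. Whether the windows overlap counted exons was not examined.

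The AGO3 window was the richest of these in G and C, at 80.0%, with 41 CG dinucleotides. AGO1 had 71.6% and 25, and AGO4 had 66.4% and 20. The medians over 35116 windows of the same length were 58.0% and 11. AGO1 and AGO3 each held 2 GC boxes, a word present in 42.6% of all windows, and AGO4 held 0. AGO1 also held 1 CCAAT box, which 32.0% of windows have, and the other two held 0. The E-box CACGTG, which was in 6.34% of windows, was in 0 of these 3 and in 0 of the 9 members that have a window in that table. Of those 9 members, 8 had a GC box and 6 had a CCAAT box. These are descriptions of the letters in the windows.

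AGO1 (ENSG00000092847.11, chromosome 1, 35869808 to 35930528) was measured at 92.9, 88.2 and 89.5 CPM in knockdown and at 130.7, 139.3 and 118.8 CPM in control. Every knockdown library was below every control library, and the knockdown libraries lay close together (90.2 ± 2.39 against 130 ± 10.3 CPM, SD, n = 3 in each group). edgeR gave an adjusted p of 0.029 and a log2 difference of -0.52 (SE 0.12), and AGO1 was lower in 3 of 3 pairs. AGO3 (ENSG00000126070.19, chromosome 1, 35930718 to 36072500) had 76.6, 94.5 and 94.9 CPM in knockdown and 58.4, 65.6 and 62.1 CPM in control. Every knockdown library was above every control library, knockdown replicate 1 least so. The means were 88.7 ± 10.4 and 62.0 ± 3.59 CPM (SD, n = 3), and edgeR gave an adjusted p of 0.0463 with a log2 difference of 0.52 (SE 0.13). Both calls were near the threshold without the block. In fits on 5 libraries the AGO1 call held without control replicate 3 (0.0494) and was lost in the other 5 fits (adjusted p up to 0.123). The AGO3 call held without knockdown replicate 1 (0.0439) and was lost in the other 5 (up to 0.166). With the block the adjusted p was 0.00208 for AGO1 and 0.0024 for AGO3.

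AGO4 (ENSG00000134698.10, chromosome 1, 35808172 to 35857890) was measured at 63.6, 46.3 and 53.8 CPM in knockdown and 42.1, 38.7 and 50.3 CPM in control. It was higher in 3 of 3 pairs, by log2 ratios of 0.59, 0.26 and 0.10, but control replicate 3 exceeded knockdown replicate 2. Its fitted log2 difference was 0.32 (95% interval -0.05 to 0.68, adjusted p 0.261, edgeR), or 0.19 without knockdown replicate 1, and it was not called with the block either (0.0655).

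AGO2 (ENSG00000123908.11, chromosome 8, 140520156 to 140635619) had the largest fitted difference of the 10 members and also the widest interval. Its values were 114.4, 130.1 and 121.1 CPM in knockdown and 179.0, 276.4 and 149.3 CPM in control. The groups did not overlap, and control replicate 2 stood far above the other control libraries. The means were 122 ± 7.88 and 202 ± 66.5 CPM (SD, n = 3). The fitted log2 difference was -0.73 (95% interval -1.20 to -0.25, adjusted p 0.07, edgeR), so AGO2 was not called in that fit, which had no block. With the block edgeR called it (-0.68, adjusted p 0.00243). AGO2 was also called in 3 fits that had no block. These were DESeq2 (0.0151), edgeR without the filter on low counts (0.000476) and edgeR without control replicate 3 (-0.91, adjusted p 0.0434). Without control replicate 2 the log2 fold change was -0.45 (adjusted p 0.0812). The pairs gave log2 ratios of -0.65, -1.09 and -0.30.

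**Figure D2:**
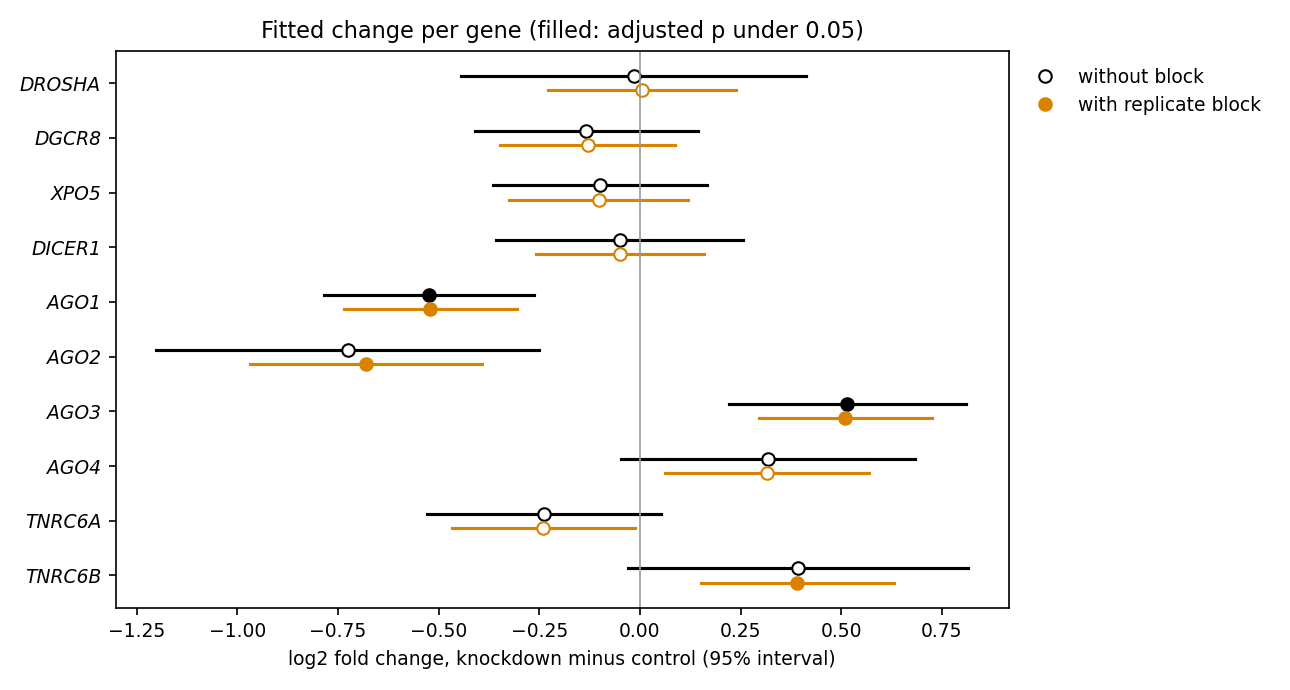
Fitted log2 fold change of each member (horizontal axis, knockdown minus control) with its 95% interval, without the replicate block in black and with it in orange, filled where the adjusted p is under 0.05. AGO1 and AGO3 are filled in both fits, AGO2 and TNRC6B in the block fit, and the intervals of DROSHA, DGCR8, XPO5 and DICER1 cross 0 in both.

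The makeup of the Argonaute pool was then compared within each library, where the scaling between libraries plays no part. Levels were expressed per length, as RPKM (CPM divided by the exon length in kilobases), and each gene's part of the sum over AGO1 to AGO4 was taken. The AGO1 share was 25.4, 25.0 and 24.8% in knockdown replicates 1 to 3 and 32.1, 27.9 and 30.7% in control replicates 1 to 3. The AGO2 share was 27.5, 32.3 and 29.4% in knockdown and 38.6, 48.6 and 33.9% in control. For both genes the highest knockdown share lay under the lowest control share, and the group means differed by -5.19 and -10.6 percentage points. The AGO2 difference was -6.49 points without control replicate 2.

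AGO3 made up 13.8, 17.6 and 17.3% of the pool in knockdown and 9.43, 8.63 and 10.5% in control. AGO4 made up 33.3, 25.1 and 28.5% in knockdown and 19.8, 14.8 and 24.9% in control, where control replicate 3 nearly reached knockdown replicate 2. The mean AGO3 share was thus 16.2 ± 2.11 against 9.54 ± 0.96%, and the mean AGO4 share 29.0 ± 4.13 against 19.8 ± 5.01% (SD, n = 3). The order of AGO4 and AGO3 depends on the division by length. By CPM, AGO4 was below AGO3 in both groups (means 54.6 and 88.7 in knockdown, 43.7 and 62.0 in control). Each of the 4 shares had an exact two-sided permutation p of 0.1, the smallest that 3 libraries against 3 can give (0.117 after adjustment over 7 shares). Shares of a whole depend on each other, so these 4 are not separate tests. The AGO3 to AGO1 ratio of RPKM was 0.54, 0.70 and 0.70 in knockdown and 0.29, 0.31 and 0.34 in control (exact permutation p 0.1). AGO1 and AGO3 each separated the groups already, in opposite directions. The separation of their ratio, and its p, thus followed from theirs and are not a further test. The summed Argonaute level was 26.3, 25.4 and 26.0 RPKM in knockdown and 29.3, 35.9 and 27.8 RPKM in control, lower in every knockdown library (exact permutation p 0.1).

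**Figure D3:**
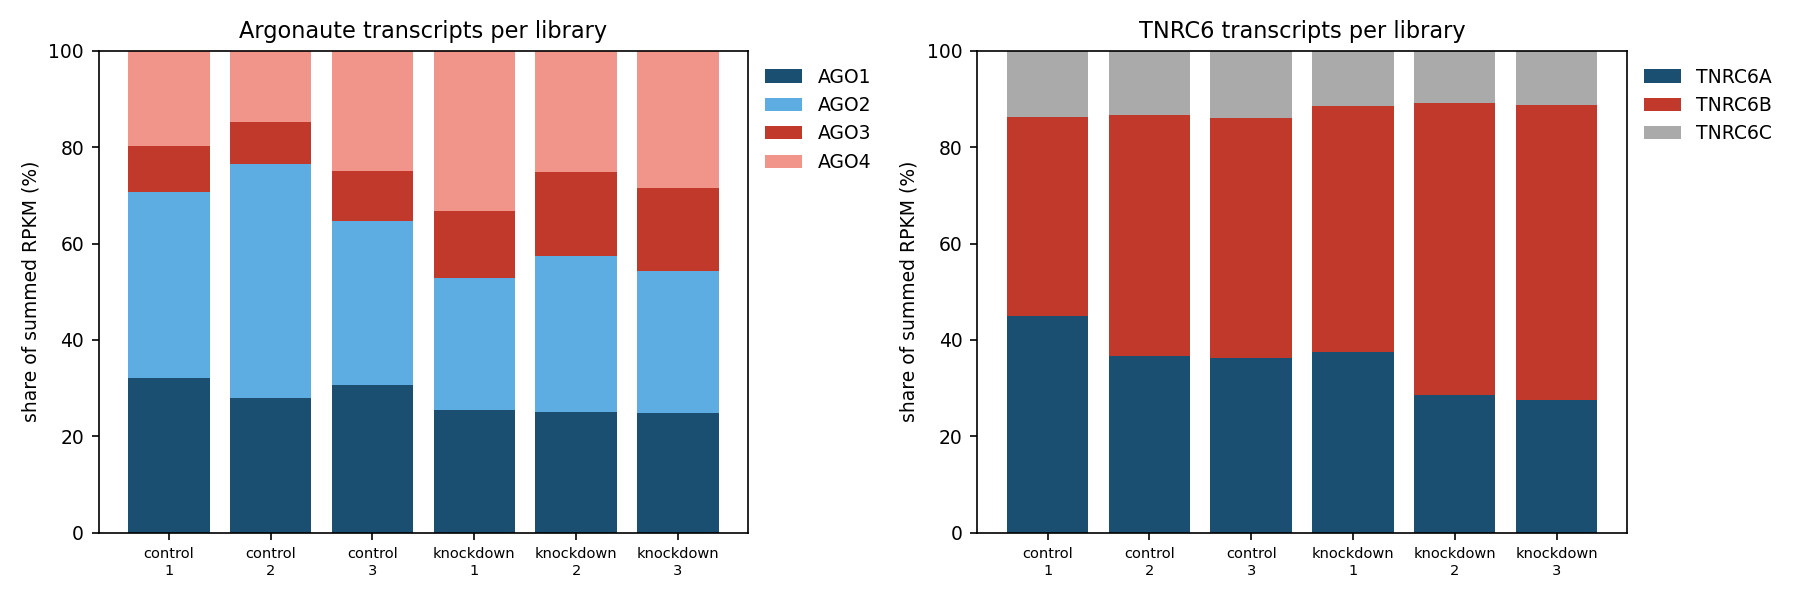
Share of summed RPKM (vertical axis, percent) taken by each Argonaute (left) and each TNRC6 gene (right) in each of the 6 libraries. AGO1 and AGO2 together fill less of each knockdown bar than of any control bar, and TNRC6B takes 51.1 to 61.2% in knockdown and 41.2 to 49.9% in control.

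Of the scaffolds that Argonautes recruit, TNRC6B passed the test with the block alone and TNRC6A in neither fit. TNRC6B (ENSG00000100354.20, chromosome 22, 40044817 to 40335808) was measured at 244.1, 307.1 and 365.3 CPM in knockdown and 186.4, 272.1 and 239.2 CPM in control. It was higher in 3 of 3 pairs, by log2 ratios of 0.39, 0.17 and 0.61, although knockdown replicate 1 lay below control replicate 2. Its fitted log2 difference was 0.39 (95% interval -0.03 to 0.82), with an adjusted p of 0.233 without the block and 0.0203 with it (edgeR). Fits with 1 library left out gave log2 differences from 0.24 to 0.52, and none was called (adjusted p 0.139 to 0.537, edgeR).

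TNRC6A (ENSG00000090905.18, chromosome 16, 24610209 to 24827632) had 115.4, 94.2 and 106.4 CPM in knockdown and 131.5, 129.3 and 112.2 CPM in control. It was lower in 3 of 3 pairs, with knockdown replicate 1 above control replicate 3. Its log2 fold change of -0.24 was not called in either fit (adjusted p 0.287, and 0.11 with the block, edgeR). The family's other gene, TNRC6C, which was not among the 10, was at 30.4, 30.8 and 37.2 CPM in knockdown and 34.7, 40.7 and 37.1 CPM in control, and its log2 fold change of -0.19 was not called (adjusted p 0.443).

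Within the TNRC6 pool the TNRC6B share was 51.1, 60.4 and 61.2% in knockdown and 41.2, 49.9 and 49.9% in control (exact permutation p 0.1, two-sided). The groups did not overlap, but knockdown replicate 1 lay close to control replicates 2 and 3. TNRC6C made up 11.5, 10.9 and 11.2% in knockdown and 13.8, 13.4 and 13.9% in control (exact permutation p 0.1). The TNRC6A share overlapped between the groups (exact permutation p 0.3). The summed TNRC6 level was 26.4 ± 3.10 RPKM in knockdown and 24.6 ± 2.39 RPKM in control (SD, n = 3), a difference smaller than the spread.

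Ranked per length, the 10 transcripts held different orders in the groups. DICER1 was the most abundant member in both groups, at 16.8 ± 1.97 RPKM in control and 16.2 ± 1.70 RPKM in knockdown (SD, n = 3). In control it was followed by AGO2 at 12.7 ± 4.20 and TNRC6B at 11.6 ± 2.16 RPKM. The range of AGO2 overlapped those of both neighbours, while DICER1 lay above TNRC6B in every control library. TNRC6A, AGO1, DROSHA, XPO5 and DGCR8 lay together between 8.38 and 9.62 RPKM. AGO4 at 6.02 ± 0.82 and AGO3 at 2.93 ± 0.17 RPKM were the lowest, and their ranges were apart. In knockdown TNRC6B, at 15.3 ± 3.03 RPKM, was second and within the spread of DICER1. DROSHA, XPO5, TNRC6A, AGO2, DGCR8 and AGO4 lay between 7.51 and 9.22 RPKM, and neighbours among them overlapped. AGO1 at 6.49 ± 0.17 RPKM overlapped AGO4, and AGO3 was again lowest, at 4.19 ± 0.49 RPKM. An RPKM value divides by all annotated exon bases of a gene, 21157 for AGO3 and 7267 for AGO4, so a gene that uses few of its exons appears lower.

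Beyond the 10 members, 68 other genes of the pathway were examined by role, of which 65 could be tested. Of these 1 was higher and 3 were lower (edgeR, adjusted p under 0.05), and with the block 6 were higher and 15 lower. The shares over all tested genes were 2.72% (higher) and 4.88% (lower) without the block, against 11.2% and 14.9% in the block fit. The higher counts and the lower count without the block were thus close to the background. The lower count with the block was above it, and 7 of those 15 genes were in the list of Argonaute loading chaperones described below. The median log2 fold change of the 65 tested genes was -0.15. The pluripotency factors LIN28A, LIN28B and TRIM71 had too few reads, and LIN28B had 0 in every library. The 12 genes that act with the primary transcript or the Microprocessor had 1 lower call, 4 lower with the block, 0 higher in either fit and a median of -0.19. NCBP1, the large subunit of the nuclear cap-binding complex, fell from 116 ± 11.3 to 68.6 ± 1.30 CPM (SD, n = 3), a log2 difference of -0.76 (adjusted p 0.00824, edgeR). NCBP1 was called whichever library was left out. NCBP2, the small subunit of that complex, was added after its values were seen. It was at 136.9, 131.1 and 118.4 CPM in knockdown and 111.8, 91.1 and 115.2 CPM in control, without overlap. Its log2 difference of 0.28 was not called (adjusted p 0.23, edgeR), so the subunits of that complex differed in sign. SRRT, which links the cap-binding complex to primary microRNA processing, was lower by a log2 of 0.41 and ERH, a small partner of DGCR8, by 0.56. edgeR called neither in its fit of all libraries without the block (adjusted p 0.0913 and 0.115) and both with it (0.00997 and 0.00166). ERH was also called without the filter on low counts (0.0111) and without control replicate 2 (-0.74, adjusted p 0.0458).

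Among the 4 export and Dicer partners edgeR made 0 calls in either fit, and without the block 0 reached 0.05 before adjustment. DESeq2 and limma-voom also made 0 calls there. TARBP2 and PRKRA, the double-stranded RNA-binding partners of DICER1, had log2 fold changes of -0.05 and 0.09. RAN, the GTPase that exportin 5 needs, had -0.23.

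The 9 genes of Argonaute loading, the HSP90 and HSP70 chaperones with their cochaperones and the importin IPO8, all had a fitted value below 0, from -0.61 to -0.18, with a median of -0.37. Of these 1 was called lower and 7 with the block, where 4.88% and 14.9% of all tested genes were lower. FKBP4, a cochaperone of HSP90, fell from 502 ± 90.5 to 329 ± 20.0 CPM, by edgeR a log2 difference of -0.61 (adjusted p 0.0448). That call held without control replicate 3 (0.0426). It was lost in the other 5 fits on 5 libraries (up to 0.15) and with RLE scaling (0.0534). The HSP70 cochaperone DNAJA2 had -0.49 and the kinase-directed cochaperone CDC37 -0.44, called by edgeR with the block (adjusted p 0.00377 and 0.0064) and not in its fit of all libraries without it (0.051 and 0.0799). DNAJA2 was also called by DESeq2 (0.0448) and limma-voom (0.05, just under the threshold), without the filter on low counts (0.0374) and without control replicate 2 (0.0325). These chaperones serve many other clients, and the list is not specific to Argonautes.

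The 30 silencing effectors, which shorten tails, remove caps and degrade targets, split evenly. There were 15 fitted values above 0 and 15 below, and the median was -0.04. Without the block edgeR made 0 calls, though 7 genes were under 0.05 before adjustment and DESeq2 made 3 calls (all higher) and limma-voom 0, and with the block 5 were higher and 3 lower. Over all genes 5219 of 21101 were under 0.05 before adjustment, and 11.2% were higher and 14.9% lower with the block, so these counts were close to the background. The decapping cofactor DCP1B, the ubiquitin ligase CNOT4 and the deadenylase subunit PAN3 had log2 fold changes of 0.63, 0.58 and 0.51. Their adjusted p values were 0.051, 0.059 and 0.0603 without the block and 0.0023, 0.00206 and 0.00709 with it (edgeR), and these 3 were the calls of DESeq2 (0.0252, 0.0268 and 0.044). DCP1B and CNOT4 were also called without the filter on low counts (0.0291 and 0.0335). PAN2, the catalytic partner of PAN3, was added after its values were seen and had -0.50 (0.0613, 0.00415 with the block, and 0.0257 without control replicate 2), so the subunits of that deadenylase differed in sign.

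Among 10 tested genes of small RNA tailing and decay, 1 was higher and 1 lower in either fit. The shares over all tested genes were 2.72% (higher) and 4.88% (lower), against 11.2% and 14.9% in the block fit. These counts on 10 genes are therefore given as a description only. The uridylyltransferase TUT4, named ZCCHC11 in the table, rose from 66.7 ± 4.73 to 92.0 ± 5.52 CPM, by edgeR a log2 difference of 0.46 (adjusted p 0.0478). The call was lost whichever library was left out (up to 0.149) and without the filter on low counts (0.075). PARN, a poly(A)-specific ribonuclease, fell from 83.1 ± 3.29 to 56.2 ± 2.67 CPM (-0.56, adjusted p 0.0207, edgeR), a call lost without control replicate 1 or 3 or knockdown replicate 2 or 3 (up to 0.0999). ZSWIM8, a ubiquitin ligase of target-directed microRNA decay, had -0.27 and was not called (0.222).

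**Figure D4:**
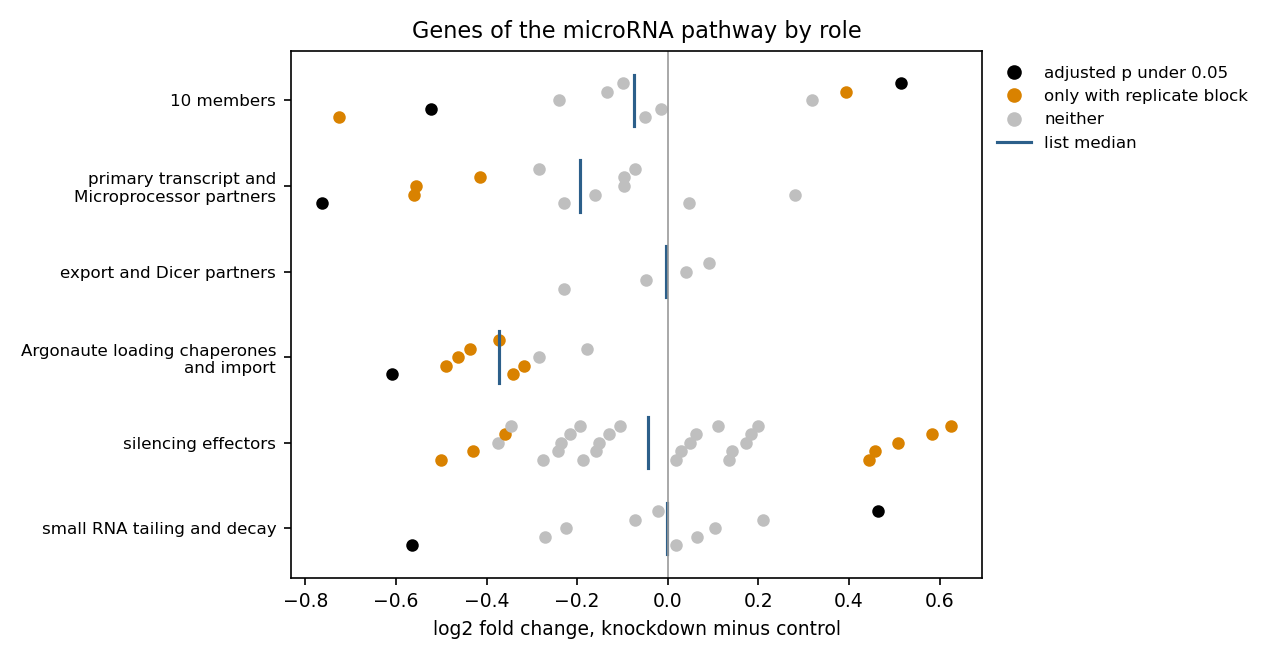
Fitted log2 fold change (horizontal axis, knockdown minus control) of the 10 members and 65 other tested pathway genes, grouped by role, with a blue line at each list's median. Black points passed the test without the block and orange points with it. The loading chaperones all lie left of 0, and the other lists lie on both sides.

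Over the 6 libraries the log2 CPM of AGO1 followed that of DOCK8, an exchange factor for small GTPases, and of the acetyltransferase gene KAT6A most closely (Pearson r 0.999 for both). AGO3 followed MDM2, the ubiquitin ligase of p53 (r 0.996), and PLCG2, a phospholipase C (r 0.995). These were the nearest of 16811 genes with a mean of at least 1 CPM. The correlations describe 6 libraries that share the group difference. Apart from DGCR8, no member shared more than 2.85% of its exonic bases with another gene. That largest share was in AGO1, with RP4-789D17.5 on the other strand, which had 6 to 24 reads.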

How the data were processed

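The authors deposited read counts per gene for 6 libraries. Per the submitters' processing notes, STAR 2.5 with hg38, featureCounts of Subread 1.6.5 and edgeR 3.20.8 were used. Strand setting and annotation release are not given in the sources used here. The deposited table also gives each gene's exon length in bases, another unit taken from the authors' table and used for RPKM.

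The counts were fitted across all genes with edgeR 4.0.16 in R 4.3.3 (TMM, filterByExpr, quasi-likelihood F test, two-sided, Benjamini-Hochberg over 21101 genes). Standard errors are the log2 fold change divided by the root of F. Alternatives were RLE scaling, no filter, DESeq2 1.42.0, limma-voom (limma 3.58.1), chromosomes only, each library left out, and the replicate number as a block. Libraries with the same number correlated in their deviations from the group mean (0.554, 0.381 and 0.358), and other combinations gave -0.39 to 0.06, so the numbers were taken as pairs. Deviations within a group cancel out, so the lower values of other combinations follow in part from the higher ones and are not separate evidence. This pairing comes from the data and the titles' numbers. The block fit leaves 2 residual degrees of freedom, against 4 in the fit without the block. The design text calls the replicates biological. Shares used exact permutation tests.

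The members and gene lists were chosen with earlier results of these data known. Named pathway genes were the 3 with the smallest p in each list, plus TNRC6C, TARBP2 and PRKRA. For each called member the 2 genes with the highest Pearson correlation of log2 CPM were named, and of the microRNA host transcripts the called ones. Of the pathway genes 3 were matched by an older symbol. Promoter and microRNA sequences are from RefSeq (GRCh38.p14).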

Additional observations from a re-analysis of the deposited data

How the results depend on the processing

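With the replicate block, which pairs libraries by number, the called members became 2 higher and 2 lower, and the other pathway genes 6 higher and 15 lower. No filter gave 2 lower members, and 2 higher and 7 lower pathway genes. DESeq2 gave 2 lower members and 4 higher pathway genes. Leaving out 1 library gave 0 to 1 higher and 0 to 2 lower members, and 0 higher and 1 to 5 lower pathway genes. RLE scaling, limma-voom and the fit on chromosomes alone kept all 4 counts within 1.5 times. As shares of reads, without division by length, the AGO2 and TNRC6B differences were -11.1 and 9.82 points. The difference in AGO2 share of RPKM ranged from -13.9 to -6.49 points without 1 library and that in TNRC6B share from 7.69 to 13.8 points. With the replicate block their paired exact p was 0.25, the smallest that 3 pairs allow.

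Of 312 values of 26 named genes, 252 kept direction and side of the threshold, 27 lost a call, 23 gained one and 10 changed sign, all 10 in genes not called. On the log2 scale DROSHA had 0.0049 with the replicate block, 0.0015 with RLE scaling, 0.014 in limma-voom, and -0.12 to 0.20 without 1 library. The cause was not tested. Without 1 library DICER1 ranged from -0.15 to 0.088, TARBP2 from -0.15 to 0.076, RAN from -0.37 to 0.013 and PRKRA from -0.011 to 0.24. The replicate block changed no calls of the members and named pathway genes beyond those given in the results. The 10 members had at least 1080 reads in every library, and the common coefficient of variation between libraries was 20.8%, or 11.9% with the block.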

Other observations

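Transcripts that host microRNAs, the raw material of the Microprocessor, were read from the same fit. Of 51 genes named as microRNA host transcripts, 20 could be tested, and 2 were higher and 1 lower (edgeR, adjusted p under 0.05). With the replicate block 4 were higher and 2 lower. The shares over all tested genes were 2.72% (higher) and 4.88% (lower), against 11.2% and 14.9% in the block fit, so these counts on 20 genes are given as a description only. MIR600HG fell from 22.0 ± 3.25 to 13.4 ± 0.791 CPM (SD, n = 3), a log2 difference of -0.72 (adjusted p 0.0329). MIR193BHG rose from 0.691 ± 0.205 to 1.67 ± 0.334 CPM (1.27, adjusted p 0.0448), and MIR181A2HG from 0.226 ± 0.108 to 0.766 ± 0.209 CPM (1.71, adjusted p 0.0473). Both of the latter rest on few reads, and their calls were lost without any library (adjusted p up to 0.173 and 0.152). MIR600HG kept its call in 1 of the 6 fits without a library (up to 0.111). Of the 9 mature products of these hosts, the 5 below are shown from RefSeq (GRCh38.p14) with the seed, bases 2 to 8, in capitals, and miR-181a-5p and miR-181b-5p share a seed.
hsa-miR-600: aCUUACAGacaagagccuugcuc
hsa-miR-193b-3p: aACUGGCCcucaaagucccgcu
hsa-miR-365a-3p: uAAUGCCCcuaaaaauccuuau
hsa-miR-181a-5p: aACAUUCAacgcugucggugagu
hsa-miR-181b-5p: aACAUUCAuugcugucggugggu
Mature microRNAs were not measured in these libraries, and a host transcript's level need not follow that of its product.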
